A study of Basiliscus vittatus and Chrysopelea ornata and Dasypeltis gansi with 10 samples.

Results

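The limbless lizard Pseudopus apodus was compared with 4 quadrupedal lizards by the RNA of the adult cerebellum. Of 630 genes measured as one-to-one orthologs, 279 lay outside the range of the 4 quadrupedal species in P. apodus, 155 above it and 124 below it. For this, each level was taken as log2(FPKM + 1), where FPKM is the number of sequenced fragments scaled to the transcript's length and to the library's mapped total, and each library was centred to the same median. A gene was counted as outside when the value of P. apodus was higher than the highest or lower than the lowest of the 4 others, and its gap is the distance to the nearest of them.

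Besides comparing brain shape, cerebellar size and Purkinje cell layout across squamates, the study sequenced the RNA of the fresh cerebellum of 10 species. These were 5 lizards and 5 snakes that move in different ways. The study asked how far cerebellar gene expression goes with the mode of locomotion. All animals were labelled adult and wild-type, with no treatment, and each species gave 1 column of values. P. apodus, an anguid that moves by lateral undulation, was the limbless group (n = 1). The quadrupedal group (n = 4) held Pogona vitticeps, an agamid, and Lepidothyris fernandi (Mochlus fernandi in the labels), a skink, both walking on the ground. It also held Trioceros jacksonii, an arboreal chameleon, and Basiliscus vittatus, a semi-arboreal corytophanid that can also run on its hind legs. Each of the 5 lizards thus came from another family, so that limb loss, family and species cannot be told apart here. The spread between animals of 1 species was not measured. The standard errors (SE) given come from the program limma and start from each gene's spread between the 4 quadrupedal species. Limma draws this spread toward the one shared by all genes, with 8.31 prior against 3 residual degrees of freedom. An SE is thus not the spread of that gene alone, and the smallest SE of any gene was 0.74 log2 units. The 5 snakes Pantherophis guttatus, Chrysopelea ornata, Dasypeltis gansi, Python regius and Eryx colubrinus are limbless too. Their values are set beside those of some of the named genes. Where the snakes are not given, a gap is not shown to be particular to P. apodus.

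The cerebellum adjusts posture and movement. The Purkinje cells, the only output neurons of its cortex, receive excitatory input from granule cell axons and from climbing fibres. In mammals, glutamate at metabotropic receptor 1 activates phospholipase C in Purkinje cells, and the inositol trisphosphate so formed opens the type 1 receptor on the endoplasmic reticulum and releases calcium, a step needed for normal gait. The FPKM values come from whole tissue, in which fewer cells of a type and less RNA per cell cannot be told apart.

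The 630 FPKM values summed to 8328 in P. apodus and to between 6289 (L. fernandi) and 13383 (T. jacksonii) in the quadrupedal lizards, and the median gene stood at 7.27 FPKM in P. apodus against 5.24 to 15.5 in the others. Centring therefore added 0.34 log2 units to P. apodus and 0.75 to L. fernandi and took 0.28, 0.66 and 0.14 from P. vitticeps, T. jacksonii and B. vittatus. The number of reads behind each value is not known from FPKM. Across the 630 genes the log2 values of P. apodus correlated with those of the 4 quadrupedal lizards with Pearson's r of 0.437 to 0.508. Among the 4 quadrupedal species r was 0.50 to 0.599, and with the 5 snakes P. apodus correlated at 0.365 (D. gansi) to 0.650 (P. guttatus), with C. ornata at 0.637. These are descriptions across genes of 1 library per species, and genes are not independent replicates. The study puts P. guttatus and C. ornata in the locomotor group of P. apodus, limbless multi-habitat species using lateral undulation. The part of locomotor mode in the values of r was not tested. The median absolute difference of P. apodus to each of the 4 quadrupedal lizards was 0.76 to 0.89 log2 units, and among these 4 it was 0.69 to 0.82. To the 5 snakes it was 0.65 (C. ornata) to 0.83 (D. gansi).

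Of all 630 genes, 24.6% lay above and 19.7% below the quadrupedal range in P. apodus, 44.3% in all, while 351 lay within it. By construction 1 of the 5 lizards is highest and 1 is lowest at every gene, and the other 4 lizards stood at either end in 34.3% (L. fernandi) to 43.3% (T. jacksonii) of the genes. The median gap of the genes outside was 0.49 log2 units, and the gap exceeded 1 log2 unit in 38 genes above (6.03% of all) and in 36 below (5.71%). Each other lizard was highest of the 5 by over 1 in 9 (P. vitticeps) to 29 (L. fernandi) genes. Each was lowest by over 1 in 12 (L. fernandi) to 36 (T. jacksonii), so that large gaps below were not particular to P. apodus. At this limit of 1 in P. apodus, histone deacetylase 4 was just outside with a gap of 1.00 below the range. Desumoylating isopeptidase 1 was just inside the limit with a gap of 0.99 above the range. The split between the directions depended on the centring, because without it 78 genes lay above and 167 below. The 38 and 36 genes with gaps over 1 stayed outside on the same side in all 12 settings that changed the values, in those that kept the gene. Much of this was fixed by the limit of 1. Leaving out a quadrupedal lizard can only narrow the range. Centring moved P. apodus by 0.34 log2 units and no quadrupedal lizard by more than 0.66 in the opposite direction, so removing it could hardly undo such a gap.

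With limma, which takes the spread from the 4 quadrupedal species and assumes that the lone P. apodus library varies like them, no gene passed an adjusted p of 0.05, so that 0% of the genes were called higher and 0% lower. At an unadjusted p under 0.05, 28 genes were higher and 36 lower in P. apodus. The lowest adjusted p was 0.0827, shared by utrophin and the type 1 inositol trisphosphate receptor. The 95% interval of a difference reached a median of 1.87 log2 units to either side, so that for the median gene a difference below this size could not be told from the spread between species even before adjustment. An exact rank test of 1 library against 4 cannot fall below p = 0.4 (two-sided) and was not used on single genes.

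**Figure D1:**
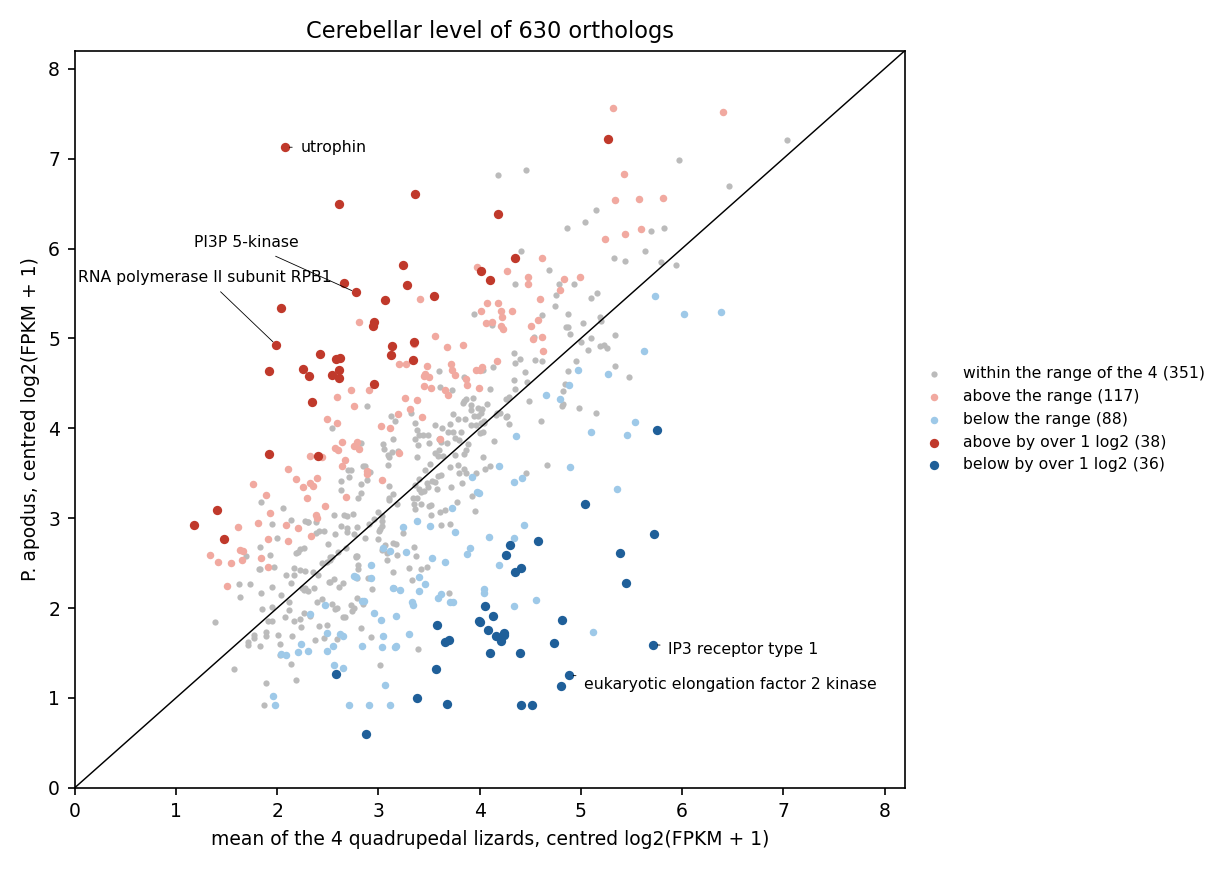
Each point is 1 of the 630 genes, with the mean of the 4 quadrupedal lizards on the x axis and P. apodus on the y axis, both as centred log2(FPKM + 1), and the line marks equal values. The 38 genes above the quadrupedal range by over 1 log2 unit are dark red and the 36 below it by over 1 dark blue, and utrophin stands apart at the upper left with the type 1 inositol trisphosphate receptor (IP3 receptor type 1) at the lower right.

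Utrophin showed the largest gap above the range. This autosomal relative of dystrophin links the actin cytoskeleton to the membrane complex that binds laminin outside the cell. Its level was 109 FPKM in P. apodus, against 3.74 in P. vitticeps, 2.86 in L. fernandi, 1.5 in T. jacksonii and 7.88 in B. vittatus. The quadrupedal species did not come near the value of P. apodus, and the snakes, at 2.57 to 17.3 FPKM, did not either. On the centred scale the gap was 4.12 and the difference to the quadrupedal mean 5.05 log2 units (SE 0.95, adjusted p = 0.0827 by limma).

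The second largest gap above the range, 2.87, belonged to a row named only reverse transcriptase, which is the protein of mobile elements and may not be the same locus in every species. It was at 70.2 FPKM against 14.1 in P. vitticeps, 4.19 in L. fernandi, 6.88 in T. jacksonii and 1.86 in B. vittatus, and its name makes it an uncertain ortholog. Among the snakes it was at 116 FPKM in C. ornata, 118 in D. gansi and 1.22 to 38.7 in the others. After centring P. apodus was not above every snake for this row.

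The 1-phosphatidylinositol 3-phosphate 5-kinase, which makes the phosphoinositide that governs late endosomes and lysosomes, was at 35.1 FPKM in P. apodus against 6.54, 2.96, 9.09 and 8.22 in P. vitticeps, L. fernandi, T. jacksonii and B. vittatus, the order kept from here on. After centring the quadrupedal species lay close together for this gene, and P. apodus was higher than all 9 other species, with a gap of 2.45 to the quadrupedal range and a difference of 2.74 (SE 0.75). RPB1, the largest subunit of RNA polymerase II, was at 23.1 FPKM against 7.23, 1.97, 2.55 and 2.61, and at 1.43 to 10.3 in the snakes. It too was highest in P. apodus among all 10 species, with a gap of 2.17 and a difference of 2.94 (SE 0.84).

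A pair of enzymes that remove ubiquitin from histone H2A were among the 10 largest gaps above the range. The deubiquitinase MYSM1 was at 30.9 FPKM in P. apodus against 2.38, 1.89, 13.2 and 1.63, a gap of 2.17 log2 units. BAP1 was at 14.5 FPKM against 6.5, 2.75, 3.27 and 5.98, a gap of 1.63. For both genes the 4 quadrupedal lizards were all lower than P. apodus, and the snakes, which were compared with the same 4 lizards, stood at 11.5 to 45.9 FPKM for MYSM1 and 10.6 to 72.7 for BAP1. These snake values are not centred. After centring P. apodus was above every snake for MYSM1 but not for BAP1. Host cell factor 1, a transcriptional coregulator that binds BAP1 in mammals, was at 18.6 FPKM against 3.6, 1.64, 10.7 and 0.84, a gap of 1.75. The snakes spanned 6.21 to 30.1 FPKM at this gene, and after centring P. apodus was above every snake.

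The other genes at this end had varied roles. DNA (cytosine-5)-methyltransferase 1, which copies methylation to the new DNA strand, was at 20.6 FPKM against 4.61, 2.39, 8.78 and 7.73, with a gap of 1.79. Cyclin-dependent kinase inhibitor 1, known as p21, which holds cells out of the cycle, was at 19.01 FPKM against 5.44, 3.95, 3.54 and 3.58, with a gap of 1.61. All 4 quadrupedal lizards were lower than P. apodus for both genes, and the snakes reached 28.4 FPKM for the methyltransferase and 23.2 FPKM for p21. After centring P. apodus was above every snake for both genes. Aminopeptidase O, a metallopeptidase, was at 43.6 FPKM against 15.1, 7.42, 11.1 and 5.15, with a gap of 2.00. The limma adjusted p of the genes named in these last paragraphs, utrophin left aside, ran from 0.142 to 0.455.

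Below the range, the type 1 inositol 1,4,5-trisphosphate receptor had the largest gap. It was at 1.38 FPKM in P. apodus against 70.6, 40.7, 88.9 and 35.0 in the quadrupedal lizards. The snakes stood at 34.9 to 156 FPKM, so that P. apodus alone among the 10 cerebella was low for this calcium channel. On the centred scale the gap was 3.43 and the difference to the quadrupedal mean -4.12 (SE 0.79, adjusted p = 0.0827 by limma).

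Eukaryotic elongation factor 2 kinase, a calcium-dependent kinase that slows translation by phosphorylating elongation factor 2, was at 0.88 FPKM in P. apodus against 46.95, 10.1, 34.6 and 50.0, a gap of 2.97 below the range. Its substrate elongation factor 2 was at 21.9 FPKM against 45.4, 22.2, 215 and 31.4, a gap of 0.02 below the range on the centred scale. The 116 kDa subunit a of the V-type proton ATPase, part of the pump that acidifies vesicles and lysosomes, was at 2.84 FPKM against 62.5, 31.7, 54.3 and 39.3, a gap of 2.85. The snakes were at 45.9 to 102 FPKM for this subunit, and P. apodus was lower than all of them. Another part of the same pump, the 21 kDa proteolipid subunit, was at 39.4 FPKM against 34.1, 14.6, 49.4 and 46.4, which placed it 0.26 above the range after centring and within it without.

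Amphiphysin, which bends the membrane in clathrin-mediated endocytosis at nerve terminals, was at 0.73 FPKM against 17.5, 16.5, 65.7 and 35.1, with a gap of 2.79. Its values in the snakes ran from 2.5 to 55.8 FPKM, with P. regius and D. gansi at the low end. After centring P. apodus was not below every snake for this gene. Nicotinamide riboside kinase 2-like, whose name marks it as an uncertain ortholog, was at 0.5 FPKM against 23.3, 16.4, 29.1 and 19.4. A value of exactly 0.5 FPKM is listed for 7 genes of P. apodus and may be a floor rather than a measured level, so that the distance of such a gene to the range is not exact. The lowest value of P. apodus was 0.2 FPKM, so that 0.5 is not a floor for every gene. THO complex subunit 2, which takes part in mRNA export, was at 1.56 FPKM against 17.0, 16.8, 25.04 and 18.2, with a gap of 2.19. The 4 quadrupedal values of this gene were close to each other. The snakes were at 4.69 to 16.5 FPKM. After centring all 5 of them were also below the quadrupedal range, and P. apodus was lower still.

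Neural cell adhesion molecule 2, which guides and holds axons of the olfactory system in rodents, was at 4.57 FPKM against 169, 19.97, 79.3 and 33.1, with a gap of 2.13. Cadherin-20, a type II cadherin, was at 3.82 FPKM against 60.03, 28.2, 40.5 and 51.8, with a gap of 2.10, while 4 of the 5 snakes were at 2.19 to 13.7 FPKM and D. gansi at 127. Myomegalin, a scaffold of the centrosome and Golgi apparatus, was at 1.88 FPKM against 24.5, 28.7, 24.0 and 41.0, and at 2.98 to 50.1 in the snakes. After centring P. apodus was not below every snake for myomegalin. Death-inducer obliterator 1, a nuclear protein, was at 1.61 FPKM against 26.6, 8.09, 40.2 and 14.6, with a gap of 2.09, and was lower than in all 9 other species. In these 10 genes below the range the limma adjusted p lay between 0.0827 and 0.337. Of the 36 genes below the range by over 1 log2 unit, 9 stood at or below 1 FPKM in P. apodus, where a value may rest on few reads.

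**Figure D2:**
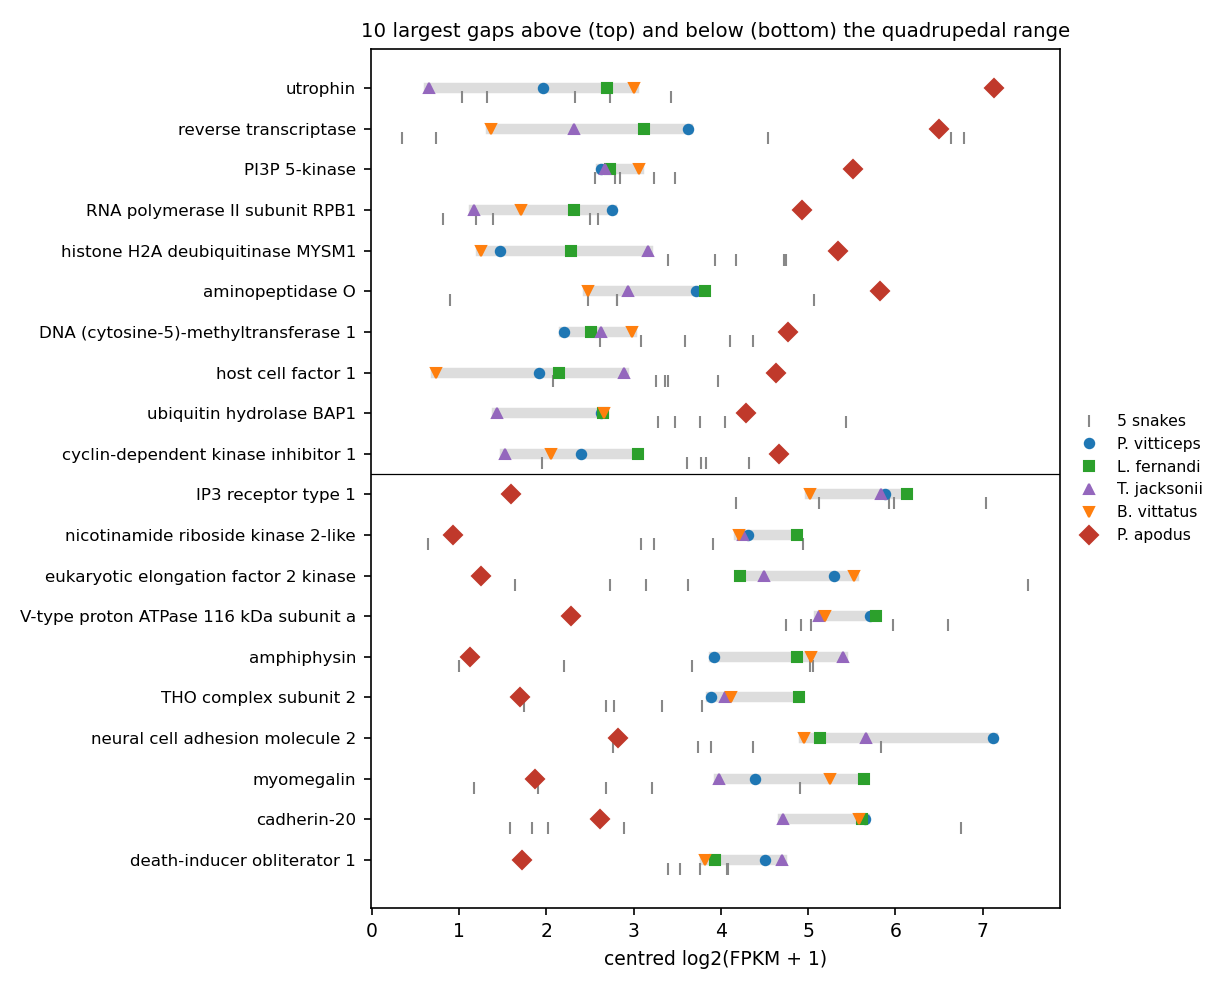
Centred log2(FPKM + 1) is on the x axis for the 10 genes with the largest gap above the quadrupedal range (top) and the 10 with the largest gap below it (bottom). Red diamonds are P. apodus, coloured symbols the 4 quadrupedal lizards, grey bands their range and grey ticks the 5 snakes, and P. apodus stands 1.61 to 4.12 log2 units above the band in the upper rows and 2.09 to 3.43 below it in the lower rows.

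Of the pathway of the type 1 receptor, only the genes held by the lists were then read, from the ligand receptor onwards. Beta-1 was the only beta form of phospholipase C among them. Metabotropic glutamate receptor 1, at its head, was at 18.8 FPKM in P. apodus against 9.41, 9.62, 13.8 and 23.2, a centred level 0.20 above the range but within it without centring. Phospholipase C beta-1, which makes inositol trisphosphate, has 2 rows of the same name in the table, so that the copy cannot be known. In P. apodus the first row was at 27.4 FPKM, within the range, and the second at 0.74 FPKM against 2.77, 5.15, 32.1 and 7.0, which was 0.49 below it.

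The list of calcium stores and pumps held 7 genes, of which 3 lay above the range and 1, the type 1 receptor, below it, 57.1% outside against 44.3% of all 630 genes. The median difference of 0.72 log2 units, against 0.09 over all genes, went to 0.12 without B. vittatus, to 0.30 without centring and to 0.25 among the 6 genes with a mean of at least 5 FPKM. The type 3 inositol trisphosphate receptor was at 8.41 FPKM in P. apodus, within the quadrupedal values of 1.27 to 20.4. Ryanodine receptor 2, a calcium-gated release channel, was at 14.2 FPKM and also within the range. Ryanodine receptor 1 was at 2.74 FPKM against 2.28, 1.3, 1.94 and 2.75, a gap of 0.29 above the range. Plasma membrane calcium-transporting ATPases 1 and 3, which extrude calcium, were above it by 0.19 and 0.63, at 30.1 and 55.4 FPKM in P. apodus. Without centring none of these 3 lay above the range, and the type 1 receptor still lay below it.

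Of the 8 genes of phospholipase C and diacylglycerol signalling, 1 was above and 2 were below the range, with a median difference of 0.06. That is 37.5% outside, against 44.3% of all 630 genes. Diacylglycerol kinase kappa, which converts diacylglycerol to phosphatidic acid, was at 1.23 FPKM in P. apodus against 11.3, 18.7, 28.0 and 34.7, a gap of 1.84 below the range. Diacylglycerol kinases alpha and delta, at 4.13 and 12.2 FPKM, were within it. The alpha form of the lipase that makes an endocannabinoid from diacylglycerol stood at 13.6 FPKM, also within the range.

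The 4 genes listed for GABA-B signalling and chloride transport all lay outside the range, 3 above and 1 below, against 44.3% of all 630 genes. The list does not hold every chloride cotransporter among the 630 genes and does not stand for that family. The median difference of the 4 listed genes was 0.86, or 0.43 without centring, when 1 lay above and 1 below. GABA-B receptors work as pairs of subunits 1 and 2, in which subunit 1 binds GABA and subunit 2 couples to the G protein. Subunit 1 was at 0.5 FPKM in P. apodus against 42.2, 9.9, 9.58 and 69.6, a gap of 1.82, and at 36.7 to 165 FPKM in the snakes. This is again the value of 0.5 that may be a floor, and leaving out the genes with a value at or below 0.5 FPKM drops subunit 1, with 3 genes of the list above the range and 0 below. Subunit 2 was at 18.8 FPKM against 19.4, 8.5, 21.2 and 18.3, which placed it 0.52 above the range after centring and within it without.

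SLC12A5 (solute carrier family 12 member 5), the potassium-chloride cotransporter KCC2 that keeps neuronal chloride low, was at 14.9 FPKM against 9.47, 5.39, 19.1 and 6.88. SLC12A2, the cotransporter NKCC1 that brings chloride in, was at 32.1 FPKM against 11.4, 16.9, 19.5 and 21.3. The centred gaps above the range were 0.66 for SLC12A5 and 0.48 for SLC12A2, and without centring only SLC12A2 stayed above it. After centring all 5 snakes were also above the quadrupedal range for SLC12A5. For SLC12A2, 2 snakes were above it and 2 below.

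**Figure D3:**
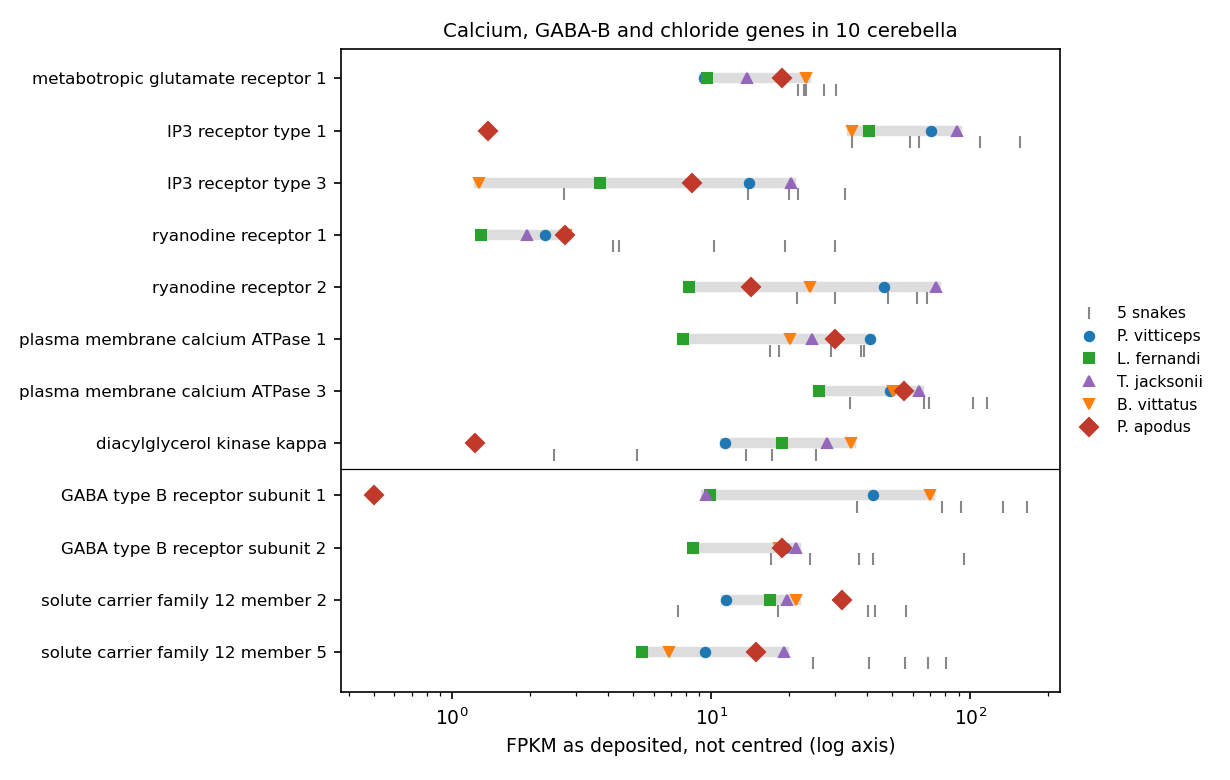
Deposited FPKM on a log axis, not centred, for 8 genes of glutamate and calcium signalling (top) and the 4 genes of GABA-B signalling and chloride transport (bottom). Red diamonds are P. apodus, coloured symbols the 4 quadrupedal lizards with their range as a grey band, and grey ticks the 5 snakes, with the type 1 IP3 receptor (1.38 FPKM) and GABA-B subunit 1 (0.5 FPKM) of P. apodus to the left of all other species.

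Among 12 glutamate receptors and postsynaptic scaffolds 1 was above the range, metabotropic glutamate receptor 1, and none was below, 8.33% outside against 44.3% of all 630 genes. Of 8 synaptic adhesion molecules 25% were outside, with calsyntenin-3 0.11 above and neuroligin-3 0.09 below, while neurexins 1, 2-beta and 3 and teneurins 1 and 2 were within. Neurexin-1, a presynaptic organiser, was at 58.1 FPKM in P. apodus against 43.0, 78.6, 57.1 and 3.51. The 15 presynaptic genes were divided between the sides, 3 above and 3 below (40% outside), with a median difference of -0.01.

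AP-2 subunits alpha-1 and alpha-2, which recruit clathrin to the plasma membrane, stood above the range by 1.36 and 0.87 at 38.6 and 46.1 FPKM in P. apodus, whereas amphiphysin, which binds AP-2, stood below it by 2.79. Intersectin-2, an endocytic scaffold, was at 0.98 FPKM against 15.1, 2.99, 11.6 and 30.4, a gap of 1.42 below. These 4 genes kept their side of the range without centring. After centring all 5 snakes were also above the quadrupedal range for AP-2 alpha-1, and P. apodus was above every snake.

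Of 14 ion channels, 5 lay above and 1 below, 42.9% outside against 44.3% of all genes. The median difference was 0.57 log2 units, and without centring it was 0.14, with 3 above. TRPM3 (transient receptor potential cation channel subfamily M member 3) was at 26.8 FPKM in P. apodus against 5.8, 5.11, 22.1 and 3.65, a gap of 1.27. The alpha-1B subunit of the N-type calcium channel, which drives transmitter release, was at 33.1 FPKM against 7.09, 2.88, 7.55 and 22.2, a gap of 1.04. The L-type alpha-1C and the T-type alpha-1G subunits were above by 0.64 and 0.43, the latter within the range without centring. Potassium channel subfamily T member 1, a sodium-activated potassium channel, was the 1 gene below, at 1.55 FPKM against 14.9, 2.94, 14.6 and 5.06 and with a gap of 0.76.

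Cell adhesion and guidance genes lay on both sides. Of 8 immunoglobulin-family molecules, 2 were above and 3 below (62.5% outside against 44.3% of all 630 genes). Neural cell adhesion molecules 1 and 2 were both below, the former by 0.80 at 12.3 FPKM against 56.0, 38.3, 45.2 and 56.2. Neurofascin, which assembles the axon initial segment and the node of Ranvier, was 0.58 above at 88.7 FPKM against 30.5, 28.7, 54.5 and 82.7. Of 14 axon guidance genes 4 were above and 4 below (57.1% outside). Semaphorin-6A, a membrane-bound guidance cue, was at 65.03 FPKM against 39.7, 10.8, 8.94 and 27.6, a gap of 1.32 above. Roundabout homolog 3, a receptor needed for midline crossing in the mammalian hindbrain, was at 1.85 FPKM against 17.8, 4.36, 13.3 and 55.5, a gap of 1.32 below. Plexin-A2, a receptor for semaphorin-6A in mice, was 1.22 below the range at 1.45 FPKM against 54.0, 3.56, 10.5 and 50.4, a gene outside the naming rule that was picked after its values were seen.

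Of 6 genes of neuronal migration, 1 was above and 2 were below (50% outside against 44.3% of all genes). Astrotactin-2, which acts in the glia-guided migration of granule cells, was at 15.1 FPKM against 4.64, 6.88, 3.39 and 7.52, a gap of 0.62 above. All 5 snakes were also above the quadrupedal range for astrotactin-2 after centring. Astrotactin-1 was within the range at 12.04 FPKM. Reelin, secreted by granule cells, was 0.20 below at 30.1 FPKM against 54.0, 66.4, 147 and 111. Jouberin, a ciliary protein, was 0.47 below at 0.99 FPKM. Among 19 cadherins and protocadherins 5 were above and 2 below (36.8% outside). CELSR2 (cadherin EGF LAG seven-pass G-type receptor 2), which acts in planar polarity, was at 18.8 FPKM against 3.62, 2.96, 12.02 and 6.47, with a gap of 1.61 above.

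The 12 locomotory behaviour genes are those named as examples in the study's text, from a larger set that it drew by clustering these libraries. They are thus a part of that set and no independent sample. In P. apodus 4 lay above the quadrupedal range and 1 below it, 33.3% and 8.33% of the list against 24.6% and 19.7% of all 630 genes, and 7 within, with a median difference of 0.00. Ephrin type-A receptor 4, which keeps corticospinal and spinal locomotor axons from crossing the midline in mice, was at 33.2 FPKM against 8.59, 8.55, 4.51 and 30.9, a gap of 0.59. Unconventional myosin-Va, a motor that carries endoplasmic reticulum into Purkinje cell spines, was at 23.0 FPKM against 9.31, 11.2, 19.97 and 19.2, a gap of 0.57. Both of them stayed above the range without centring. Metabotropic glutamate receptor 1 (0.20) and nuclear receptor coactivator 2 (0.02) were above the range by less, and without centring both were within it, the coactivator then with a difference of -0.029.

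Contactin-2, an adhesion molecule of granule cell axons, was 0.04 below the range at 15.4 FPKM against 29.7, 11.7, 43.8 and 28.3, and within it without centring. Alsin, astrotactin-1, hamartin, metabotropic glutamate receptor 5, pumilio homolog 1, spatacsin and striatin were within it, at 1.78 (hamartin) to 14.8 (striatin) FPKM in P. apodus. No gap in this list reached 1 log2 unit. Without L. fernandi 4 were above and 4 below.

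Of 26 actin and myosin genes 9 were above and 6 below the range, 57.7% outside against 44.3% of all genes. The median difference was 0.50, and it was 0.13 without B. vittatus and 0.08 without centring, when 5 were above and 8 below. Utrophin was the only one of them with a gap over 1. Gelsolin, which severs actin filaments, had the largest gap below, 0.87, at 8.37 FPKM against 35.7, 28.3, 33.2 and 26.2. Of 16 microtubule, motor and centrosome genes 4 were above and 6 below (62.5% outside). Rootletin, the fibre of the ciliary rootlet, was at 1.42 FPKM against 58.1, 4.23, 109 and 17.5, and with myomegalin it was 1 of the 2 that were below by over 1. Among 29 genes of membrane trafficking and sorting 2 were above and 7 below (6.9% and 24.1%, against 24.6% and 19.7% of all genes). Sortilin-related receptor, a sorting receptor for the amyloid precursor protein, was at 75.8 FPKM against 3.01, 1.26, 40.4 and 36.4, a gap of 1.52 above. Exocyst complex component 3, which tethers vesicles to the plasma membrane, was at 3.16 FPKM against 33.6, 9.53, 17.2 and 31.9, a gap of 1.13 below.

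Of 35 chromatin modifiers and remodellers 11 were above and 8 below (31.4% and 22.9%, against 24.6% and 19.7% of all genes), 4 and 3 of them by over 1 log2 unit. MYSM1 and DNA methyltransferase 1 led those above. Lysine-specific demethylase 4A, which removes methyl groups from histone H3, had the largest gap below, 1.68, at 1.54 FPKM against 26.2, 5.13, 19.1 and 38.0. Without centring 4 were above and 9 below. Of 23 ubiquitin genes 7 were above, 3 of them by over 1, and 2 below, 39.1% outside against 44.3%. Of 22 splicing and mRNA processing genes 2 were above and 6 below (36.4% outside), with a median difference of -0.21, and THO complex subunit 2 and regulator of nonsense transcripts 2 were below by over 1. The latter acts in nonsense-mediated decay and stood at 3.77 FPKM against 16.4, 10.1, 35.7 and 23.1.

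Among 16 translation and proteasome genes 4 were above and 4 below the range (50% outside against 44.3% of all genes). Of 7 mitochondrial NADH dehydrogenase and antioxidant genes 1 was above and none was below (14.3% outside). It was subunit 10 of the beta subcomplex, at 149 FPKM against 131, 27.0, 30.0 and 27.4. Short proteins that every cell uses were also counted, since the level of short against long transcripts can move with RNA quality. Of these 12 genes 5 were above the range (41.7%, against 24.6% of all genes) and 0 below (against 19.7%). Their median difference was 0.52, and without centring 4 were above and 3 below. The part of RNA quality in the other results was not tested, and RNA integrity values were not used here.

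**Figure D4:**
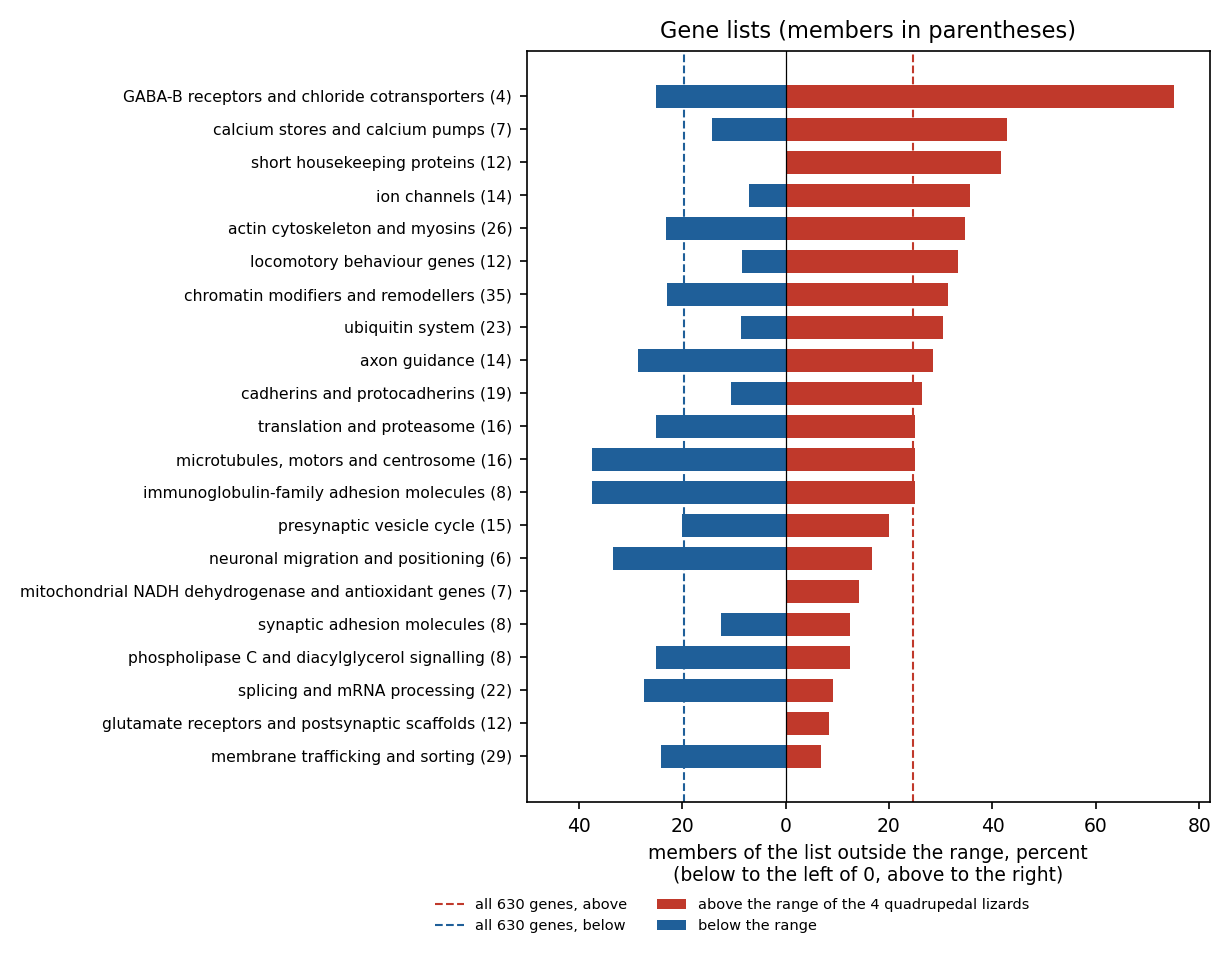
For each of 21 gene lists the bars give the share of members, in percent, that lay above (red, right) or below (blue, left) the range of the 4 quadrupedal lizards in P. apodus. The dashed lines are the shares over all 630 genes, 24.6% above and 19.7% below, and the 4 genes of GABA-B signalling and chloride transport are the list with no member within the range.

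Markers of the cerebellar cell types were read as levels only. Protocadherin Fat 2, a granule cell protein in mammals, was at 81.1 FPKM in P. apodus against 89.7, 59.9, 168 and 82.3, and metabotropic glutamate receptor 1 of Purkinje cells at 18.8. The 4 Purkinje markers together made up 0.448% of the summed FPKM in P. apodus and 0.805% to 0.983% in the quadrupedal lizards. Without the type 1 inositol trisphosphate receptor the other 3 made up 0.432% against 0.196% to 0.556%, within the range. None of the 4 was below 1 FPKM in P. apodus.

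The 4 granule cell markers made up 1.56% against 1.61% to 2.72%, with reelin and contactin-2 below the range and protocadherin Fat 2 and metabotropic glutamate receptor 7 within it. The 5 astroglial markers made up 0.373% against 0.727% to 1.33%. Of these, fibroblast growth factor receptor 3 was at 0.51 FPKM against 6.78, 4.8, 22.7 and 31.2, and the electrogenic sodium bicarbonate cotransporter 1 at 11.5 FPKM against 52.4, 31.9, 60.4 and 97.7, with gaps of 1.74 and 1.29 below the range. The other 3 astroglial markers were within it, and the median difference of the 5 was 0.34. Without the cotransporter the other 4 made up 0.235% against 0.258% to 0.463%, still below the range but close to it. After centring all 5 snakes were also below the quadrupedal range for the cotransporter, and none was for fibroblast growth factor receptor 3. The 0.51 FPKM of this receptor lies beside the value of 0.5 FPKM that may be a floor.

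The 7 markers of vessels, meninges and connective tissue made up 0.37% against 0.535% to 0.749%, with filamin-A below the range and the others within. The 4 markers of the oligodendrocyte lineage made up 1.19% against 0.625% to 1.22%. Neurofascin alone gave 88.7 of the 99.03 FPKM of this list in P. apodus, so that its share mostly follows this gene, which also belongs to axons. Myelin transcription factor 1, of oligodendrocyte precursors and neurons, was 1.44 below the range at 1.83 FPKM, while neurofascin was above it. Tenascin-R was 0.02 below the range at 4.66 FPKM. The part of cell composition in the differences of P. apodus was not tested.

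**Figure D5:**
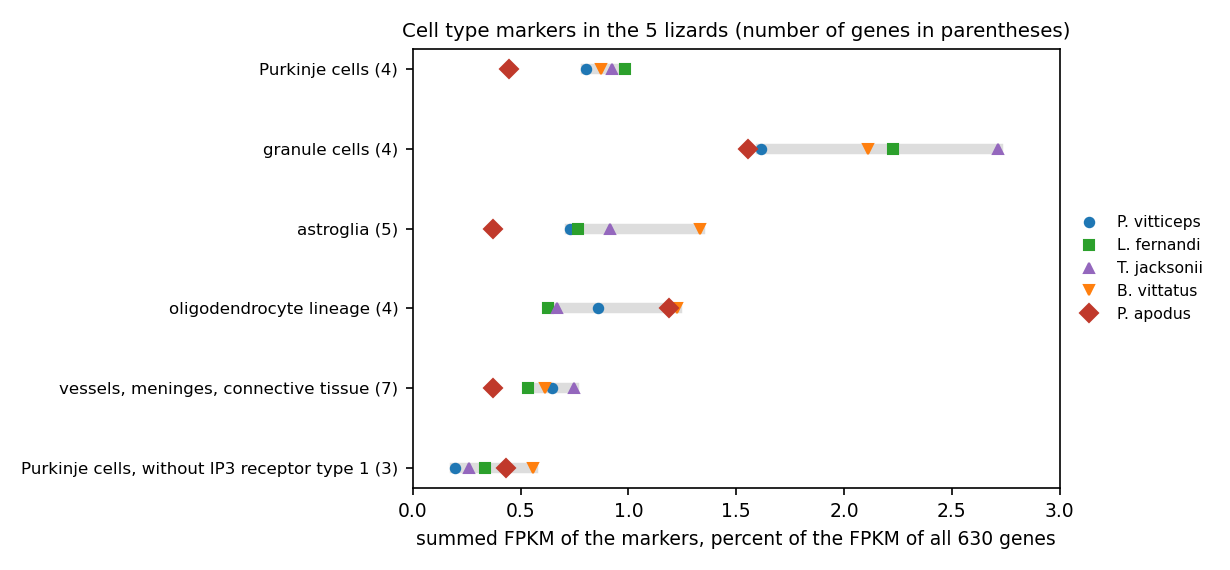
The x axis gives the summed FPKM of each marker list as a percentage of the FPKM of all 630 genes, for P. apodus (red diamonds) and the 4 quadrupedal lizards (other symbols, range as a grey band). P. apodus lies left of the band for the Purkinje list (0.448%) and within it (0.432%) once the type 1 IP3 receptor is left out.

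The range was last widened to all 9 other species, snakes included. P. apodus was higher than all 9 in 84 genes (13.3%) and lower than all 9 in 48 (7.62%). By construction 1 of the 10 species is highest and 1 is lowest at every gene, ties aside. These shares were not counted for the other species, so they are not shown to be particular to P. apodus. Gaps over 1 log2 unit to every other species were seen in 6 genes above and 10 below. The 6 included utrophin, with a gap of 3.70 to the nearest species, RPB1 with 2.17 and the 1-phosphatidylinositol 3-phosphate 5-kinase with 2.03. The 10 included the type 1 inositol trisphosphate receptor with a gap of 2.58, the V-type ATPase subunit a with 2.47, GABA-B subunit 1 with 1.82, fibroblast growth factor receptor 3 with 1.74, death-inducer obliterator 1 with 1.66 and lysine-specific demethylase 4A with 1.17. Elongation factor 2 kinase was lower in P. apodus than in all 9 species too, by 0.39 to the nearest of them. In P. apodus GABA-B subunit 1 stood at 0.5 FPKM, which may be a floor, and fibroblast growth factor receptor 3 at 0.51 FPKM. The gaps of GABA-B subunit 1 and of this receptor are thus not exact.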

How the data were processed

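RNA of adult cerebella of 10 squamates had been sequenced in duplicate runs, and the deposited table gives 1 FPKM value for each of 630 one-to-one orthologs and species. The authors trimmed the reads (Trimmomatic), removed ribosomal sequence, assembled each species de novo (Trinity), inferred orthologs (OrthoFinder), estimated FPKM (RSEM) and kept orthologs above 0.5 FPKM in at least 1 sample. No source used here states how the duplicate runs were merged. Assemblies differ between species, so a low FPKM can also reflect an incomplete or misassigned transcript, which was not tested. FPKM were used as log2(FPKM + 1), centred to the same median in each library. Depth is unknown from FPKM, so no counting interval is given. Each species is a group from its label. All 5 lizard columns were used, with the 5 snakes for description, and 0 columns were left unmapped. limma 3.58.1 in R 4.3.3 compared P. apodus with the quadrupedal lizards over all genes, with Benjamini-Hochberg adjustment and a threshold of 0.05, after tests on simulated data. The figures were drawn with matplotlib 3.10.9.

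The text names the 10 largest gaps in each direction and the 12 locomotory genes. Other names were drawn from the leading member in each direction of 21 gene lists and 5 marker lists, and from the lists of up to 8 genes. Not every gene of these kinds is named. The exceptions named beyond this rule were chosen after their values were seen: histone deacetylase 4 and desumoylating isopeptidase 1 at the limit of 1, elongation factor 2, the 21 kDa ATPase subunit, AP-2 alpha-2, intersectin-2, the N-type and L-type channels, plexin-A2, rootletin, regulator of nonsense transcripts 2 and the genes under the other observations. The comparison and the lists were chosen with earlier results of these data known, and 1 list member is not reported here. Alternatives were no centring, quantile normalization, pseudocounts of 0.5 and 0.1, filters on low values, removal of 22 rows with uncertain names, leaving out each quadrupedal lizard, a limma fit over all 10 species, a variance trend and, chosen after seeing the data, scaling to the same sum.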

Additional observations from a re-analysis of the deposited data

Results flagged for a closer look

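In 8 of the 128 genes checked, 1 of the 4 quadrupedal lizards stood far from the other 3 on the centred log2 scale, and chance alone marks about 1 group in 20 in this way. Among genes in which P. apodus was outside the range, T. jacksonii was low for cadherin-20, at 4.71 log2 units against 5.58 to 5.65 in the others, and for BAP1, at 1.43 against 2.62 to 2.66. L. fernandi was high for nicotinamide riboside kinase 2-like, at 4.87 against 4.21 to 4.32, and B. vittatus was high for the N-type calcium channel subunit alpha-1B, at 4.39 against 2.44 to 2.73. Among genes in which P. apodus was within the range, B. vittatus was high for the first row of phospholipase C beta-1, at 5.94 against 4.68 to 4.74, and for metabotropic glutamate receptor 5, at 4.26 against 3.89 to 3.90. T. jacksonii was high for spatacsin, at 3.93 against 2.65 to 2.82, and P. vitticeps low for laminin subunit alpha-5, at 1.46 against 2.98 to 3.16.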

How the results depend on the processing

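Without centring, the genes above the range went from 155 to 78 and those above by over 1 log2 unit from 38 to 12, while 167 were below and 50 below by over 1. Of the 155 genes above and 124 below, 74 and 108 kept their side without centring, and 74 and 105 kept it in all 12 settings that changed the values. The settings that leave out a quadrupedal lizard can only narrow the range, so they could not bring a gene inside it. The median difference of all genes was 0.09 with centring and -0.34 without it. Nuclear receptor coactivator 2 turned from 0.40 to -0.029 without centring. Leaving out each quadrupedal lizard in turn gave 170 to 200 genes above and 140 to 162 below, 46 to 54 and 44 to 50 of them by over 1, as a range of 3 species is narrower. Scaling to the same sum, chosen after seeing the data, gave 132 above and 150 below. Limma called 0 genes in every setting, with a lowest adjusted p of 0.0581 to 0.336. With 1 value per species, neither the spread within a species nor counting error could be measured.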

Other observations

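The 6 genes given here with their FPKM values were picked one by one after their values were seen, from those that stood outside the range by over 1 log2 unit and that no list held, and they stand for no group. Dicer, which cuts microRNA precursors, was at 37.7 FPKM in P. apodus against 3.43, 8.91, 18.5 and 1.38 in P. vitticeps, L. fernandi, T. jacksonii and B. vittatus, a gap of 1.56 above the range. Terminal uridylyltransferase 4, which adds uridines to microRNA precursors, was at 1.97 FPKM against 24.4, 9.97, 13.5 and 28.8, a gap of 1.29 below. CCR4-NOT transcription complex subunit 1, the scaffold of the main deadenylase, was at 1.66 FPKM against 16.2, 11.7, 39.9 and 10.7, a gap of 1.65 below. The limma adjusted p of these 3 genes lay between 0.391 and 0.438. Microprocessor complex subunit DGCR8 and terminal uridylyltransferase 7, which also act on microRNA precursors, were within the range.

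Leucine-zipper-like transcriptional regulator 1, an adaptor for the ubiquitination of Ras proteins, was at 37.2 FPKM in P. apodus against 11.1, 8.6, 7.6 and 10.5, a gap of 1.59. It was higher in P. apodus than in the 9 other species. Neurofibromin, which switches Ras off, was at 18.04 FPKM against 4.88, 5.23, 14.4 and 1.57, a gap of 1.21. Rap guanine nucleotide exchange factor 2, which activates Rap, was at 41.4 FPKM against 9.26, 14.8, 19.1 and 25.4, a gap of 1.01. None of these 3 genes passed the test with limma. Of other genes of Ras signalling, GTPase HRas and son of sevenless homolog 1 lay within the range, and son of sevenless homolog 2 and kinase suppressor of Ras 1 lay below it by 0.02 and 0.04, the former within it without centring.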
